A study of Danio rerio with 3 samples.

Results

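The high-numbered zinc finger genes of the zebrafish are the genes deposited under the symbols znf970 and up. They were taken by symbol alone, which gave 237 genes carrying 200 different symbols among 35117 genes in all, numbered from znf970 to znf1184. The group itself was chosen with earlier results of these data known. The next lower number on any znf symbol in the table was znf865, and 0 genes lay between, so the lower limit of 970 separates no close neighbours: znf865 stood at 28.2 RPKM at 6 hpf and 27.0 RPKM at 10 hpf, and znf970 at 6.66 and 5.61 RPKM. RNA came from whole, untreated wild-type zebrafish embryos, with 1 library at 6 hours post fertilization (hpf), early in gastrulation, and 2 libraries at 10 hpf, when it ends. RPKM counts reads relative to the length of the gene and to the total reads of the library. A single RPKM value per gene and stage was deposited by the authors, and the value at 10 hpf covers both libraries, so no spread between samples stands behind any level and no test between stages was made here. A gene is called lower or higher where the authors' deposited table gives it an empirical false discovery rate under 0.05, with the direction of their log2 fold of 10 over 6 hpf. That fold is the deposited fold in what follows. With 1 library at 6 hpf, no call can reflect the spread between samples of that stage.

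Zinc fingers of the C2H2 type are short protein loops held by a zinc ion, and several in a row read a stretch of DNA. Genes for such proteins multiply in tandem, so many vertebrates carry large sets of young copies. In human and mouse many of these proteins act as repressors of transposable elements by recruiting heterochromatin enzymes, and in fish a zinc finger family with a fish-specific amino-terminal domain is known for expression around the activation of the embryo's own genome. The labels and files do not say which of the 237 genes belong to that family or what any one of them binds.

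Nearly the whole group was present early in gastrulation and had lower RPKM values at its end. The value was at least 2 times lower in 194 of the 237 members. By the authors' deposited table, 218 of 237 members (92.0%) were called lower at 10 hpf, 1 was called higher and 18 were not called. Over all genes, 19.8% were called lower and 9.70% higher. Among genes at 1 RPKM or more at either stage, a limit that every one of the 237 members passed, 32.9% were called lower. The RPKM value was lower at 10 hpf than at 6 hpf in 231 members and higher in 6, whereas 45.0% of all genes at 1 RPKM or more had the lower value at 10 hpf.

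At 6 hpf the members ranged from 0.604 to 112.6 RPKM with a median of 28.2 RPKM, and the middle of the group lay between 14.3 and 43.0 RPKM (quartiles). At 10 hpf they ranged from 0.154 to 39.8 RPKM with a median of 7.13 RPKM and quartiles of 3.96 and 11.6 RPKM. The median member kept 28.1% of its RPKM value. None was listed at 0 at either stage. At 6 hpf 41 members reached 50 RPKM and 9 reached 100 RPKM, against 0 and 0 at 10 hpf. Among the 1000 genes with the highest RPKM there were 21 members at 6 hpf and 0 at 10 hpf. Members are 0.675% of all genes and 2.09% of the genes at 5 RPKM or more at either stage. The 21 are thus near their share of the genes at that level. Many of these genes may be close copies of each other, which was not tested here. Reads that fit several copies could be divided among them, dropped or counted at each copy by the authors' counting. The level of a single member is therefore uncertain, and so is that of the group if such reads were dropped or counted more than once. Embryos were sequenced whole, so fewer cells with a transcript and less of it per cell cannot be told apart.

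**Figure D1:**
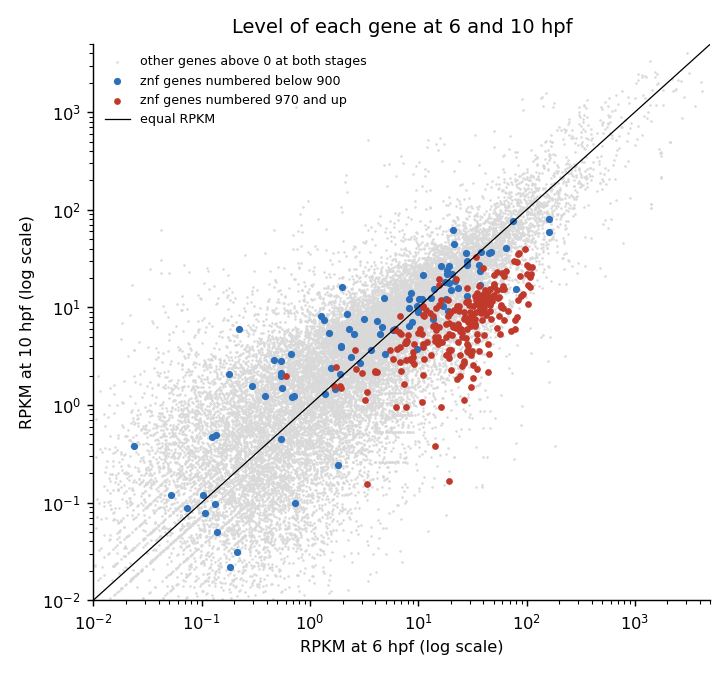
RPKM of each gene at 6 hpf (horizontal, log scale) against 10 hpf (vertical, log scale), with the 237 genes numbered 970 and up in red, znf genes numbered below 900 in blue, other genes above 0 at both stages in grey and a line of equal RPKM. Points under 0.01 RPKM lie outside the axes. Of the red points 231 lie below the line and 6 above it.

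Summed over the members, RPKM came to 7746 at 6 hpf and 2082 at 10 hpf, a ratio of 3.72, while the sum over all genes was 458927 and 464471 RPKM. This is 1.69% of the RPKM of all genes at 6 hpf and 0.448% at 10 hpf. The sum did not rest on a few loci: the 8 highest members held 10.996% of the members' RPKM at 6 hpf. A rank gives the same picture without any scale between stages. The median member stood at percentile 92.0 of all genes by RPKM at 6 hpf and at percentile 78.5 at 10 hpf, and 230 members had a lower percentile at 10 hpf. Of all genes at 1 RPKM or more, 47.2% did.

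Depth was read from the steps between low values, which correspond to 16991524 reads for the earlier stage and 23243177 for the later one. A level of 1 RPKM then stands for 17.0 and 23.2 reads per kilobase. The lowest member at each stage therefore still rested on about 10.3 reads per kilobase at 6 hpf and 3.58 reads per kilobase at 10 hpf, and the median member on far more. The stage labels were checked on a short list of marker genes. Of its 9 rows 3 were called lower, 5 higher and 1 was not called. Among them mixl1 of the early mesendoderm was called lower (14.8 to 1.54 RPKM), and the later pax2a of the midbrain-hindbrain boundary (0.298 to 15.99 RPKM) and the muscle factor myod1 (0.266 to 3.57 RPKM) were called higher. The uncalled row was gsc, a gene of the dorsal organizer, at 18.2 and 16.6 RPKM.

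The size of the fall depends on the scale. As a ratio of RPKM values, the median member was 3.56 times lower at 10 hpf, with quartiles of 2.44 and 5.28 times. The ratio was at least 2 in 194 members, at least 4 in 94 and at least 8 in 32. The deposited fold was offset from the RPKM ratio. Over genes above 5 RPKM at both stages, the authors' deposited table had folds that differed from the log2 RPKM ratio by a median of −0.60, and over all genes at 1 RPKM or more its median fold was −0.41. For the members, the authors' deposited table gave a median fold of −2.40, with quartiles of −2.93 and −1.85, the lowest being −6.93 and the highest 1.09. On the log2 ratio of RPKM with a pseudocount of 1 the medians were −1.68 for the members and 0.14 for all genes at 1 RPKM or more. The deposited folds and their conservative bounds were also centred on −0.50, the median fold of genes at 5 RPKM or more at either stage. Then 200 members (84.4%) kept a lower call, against 13.4% of all genes. All genes include 11589 listed at 0 at 6 hpf, of which 0 were called lower.

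The deposited table also holds a conservative fold, which is the log2 fold drawn towards 0 by the authors according to how little the reads support it. It lay at −1 or below in 168 members (70.9%), against 8.48% of all genes. No share over genes of a like level was computed for this limit or for the centred calls. Among the 1752 genes at 5 RPKM or more at either stage that the authors' deposited table put at a log2 fold of −2 or lower, 161 were members. That is 9.19% of those genes and 67.9% of the members. Members are 223 of the 10692 genes at that level (2.09%), and all 223 reach it at 6 hpf, where the members are high, so the share is a description.

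**Figure D2:**
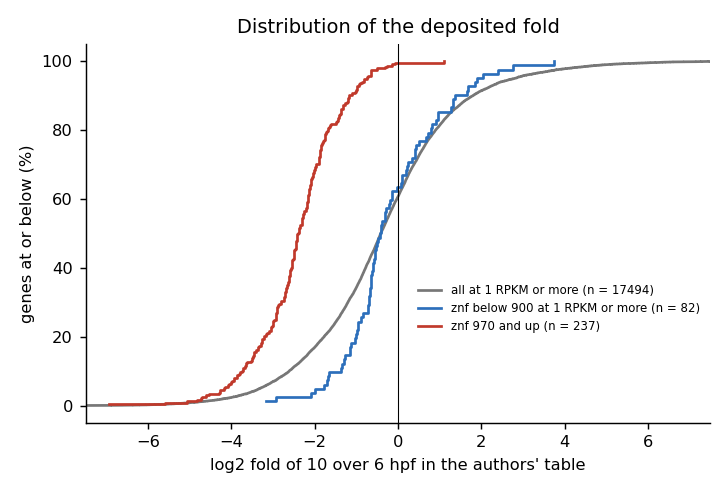
Cumulative share of genes (vertical, percent) by the log2 of 10 over 6 hpf as the authors' deposited table lists it (horizontal), for the 237 members in red, the 82 znf genes below 900 at 1 RPKM or more in blue and the 17494 genes at 1 RPKM or more in grey. The red curve lies to the left, with a median of −2.40 against −0.43 for blue and −0.41 for grey.

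The members with the highest levels at 6 hpf formed a narrow band. The highest was znf1043 (ENSDARG00000105067), at 112.6 RPKM at 6 hpf and 25.6 RPKM at 10 hpf. Next was znf1044 (ENSDARG00000089097), at 109.3 and 21.9 RPKM. The higher row of znf1045 (ENSDARG00000102791) stood at 108.3 and 16.2 RPKM. These 3 genes were alike at 6 hpf and differed more at 10 hpf, where the RPKM ratio of 6 to 10 hpf was 4.39, 4.99 and 6.67. Values for znf1065 (ENSDARG00000090366) were 107.5 and 20.3 RPKM, and those for znf1074 (ENSDARG00000099670) 106.0 and 25.6 RPKM. A steeper fall was listed for znf1150 (ENSDARG00000100148), from 103.4 to 10.9 RPKM, a ratio of 9.52. For znf1066 (ENSDARG00000091477) the values were 102.8 and 17.0 RPKM, and for znf1042 (ENSDARG00000089814) 101.8 and 21.7 RPKM. All 8 were called lower, and the authors' deposited table lists folds between −2.67 for znf1074 and −3.73 for znf1150.

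The 8 largest falls among members at 5 RPKM or more started from levels between 14.3 and 44.6 RPKM at 6 hpf. In znf1126 (ENSDARG00000103458) RPKM fell from 19.2 to 0.165, and the authors' deposited table lists a log2 fold of −6.93 and a conservative fold of −5.53. That gene stood well apart from the rest: its RPKM ratio was 117, and the second largest was 37.2, in znf1071 (ENSDARG00000098987), which went from 14.3 to 0.384 RPKM. The 10 hpf value of znf1126 corresponds to 3.83 reads per kilobase, so its ratio carries a wide counting error. More reads stood behind znf1058 (ENSDARG00000093994), which fell from 26.4 to 1.12 RPKM, and znf1072 (ENSDARG00000096226), which fell from 44.2 to 2.17 RPKM. One row of znf1102 (ENSDARG00000098510) fell from 30.7 to 1.54 RPKM, a ratio of 19.9. For 1 row of znf1053 (ENSDARG00000103310) the values were 31.7 and 1.90 RPKM. In the lower row of znf1097 (ENSDARG00000101881) they were 16.3 and 0.944 RPKM. The last of these 8, znf1113 (ENSDARG00000096172), fell from 44.6 to 3.33 RPKM, a ratio of 13.4. The next in order were nearly level with it and started higher: znf1061 fell from 78.1 to 6.05 RPKM and znf1062 from 72.3 to 5.71 RPKM. A fall of like size in a scarcer gene was that of znf1004 (ENSDARG00000088051), from 3.35 RPKM to 0.154 RPKM, the lowest level of any member at 10 hpf; these last 3 genes were picked out after their values were seen.

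The 3 highest members at 10 hpf were not among the 8 highest at 6 hpf, though they stood high there too. The highest was znf998 (ENSDARG00000098193), at 97.7 RPKM at 6 hpf and 39.8 RPKM at 10 hpf. Next came znf1018 (ENSDARG00000099277) at 84.4 and 35.7 RPKM, and the higher row of znf1021 (ENSDARG00000102804) at 82.9 and 35.2 RPKM. Each of the 3 was called lower, with RPKM ratios of 2.46, 2.36 and 2.36, below the median ratio of the group. Of the 8 members that led at 6 hpf, the highest at 10 hpf was znf1043 with 25.6 RPKM.

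The 18 members that were not called had RPKM ratios of 6 to 10 hpf between 0.704 and 1.46 and a median ratio of 1.10. They had lower levels at 6 hpf than the called ones, from 1.66 to 34.1 RPKM with a median of 6.74, against 3.22 to 112.6 RPKM and a median of 29.6 for the 218 members called lower, and the ranges overlapped. At 10 hpf the medians of the 2 sets were close, at 7.02 and 7.14 RPKM. The call rests on a fold that holds the values of both stages, so these levels are a description and not a separate result. The most abundant uncalled member was znf1035 (ENSDARG00000042969), at 34.1 and 33.1 RPKM. Next were znf1179 (ENSDARG00000104613) at 22.4 and 19.3 RPKM and znf1153 (ENSDARG00000071790) at 15.5 and 19.3 RPKM. In 5 of the 18 the 10 hpf value was the higher one. Besides znf1153 these were znf1010, znf1014, znf1156 and znf1173, named here after their values were seen. A gene that was not called is not shown to be unchanged.

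A single member was called higher. In znf1134 (ENSDARG00000097842) RPKM rose from 0.604, the lowest level of any member at 6 hpf, to 1.96. The authors' deposited table gives it a log2 fold of 1.09, a conservative fold of 0.06 and an empirical false discovery rate of 0.0436. At 6 hpf this was 10.3 reads per kilobase, and the call lay close to the threshold.

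Members with a higher level at 6 hpf had the larger fall. Of the 13 members at 1 to under 5 RPKM at 6 hpf, 6 (46.2%) were called lower, and the authors' deposited table gave a median fold of −1.03. Of the 74 at 5 to under 20 RPKM 65 (87.8%) were called lower, with a median of −1.87. In the class from 20 to under 50 RPKM it was 106 of 108 (98.1%) and −2.54, and at 50 RPKM or more 41 of 41 (100%) and −2.85. As ratios of RPKM the class medians were 1.42, 2.48, 3.94 and 4.68. A single member, znf1134, lay under 1 RPKM, and 0 members were listed at 0.

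Over all genes the fold was also lower in higher classes, over a narrower range than in the members. By the authors' deposited table, all genes in the same 4 classes had median folds of −0.40, −0.63, −0.998 and −1.06, and 30.2%, 38.5%, 52.4% and 55.9% of them were called lower. Over all genes at 5 RPKM or more at 6 hpf 45.2% were called lower, against 212 of 223 members (95.1%). Level and fold share the 6 hpf value, so a high value at 6 hpf by itself goes with a lower fold. Across members, which are not independent replicates, Spearman's rho of the 6 hpf RPKM with the deposited fold was −0.50. It was −0.47 across all genes at 1 RPKM or more and −0.70 across znf genes numbered below 900 at that level. The 10 hpf RPKM, which also enters the fold, had a rho of 0.20 with it across members. Members kept much of their order, with a rho of 0.70 between both stages, as all genes at 1 RPKM or more did (0.70).

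**Figure D3:**
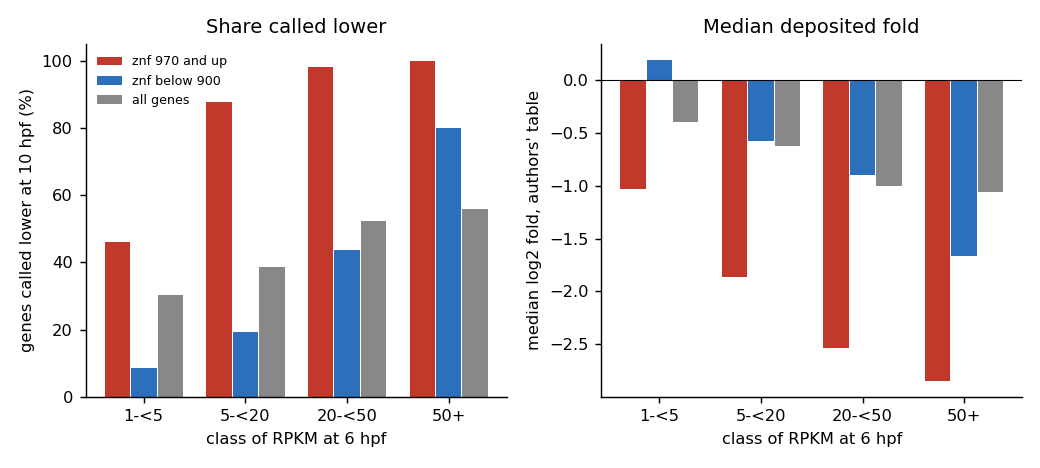
Share of genes called lower at 10 hpf (left, percent) and the median of the deposited fold, as log2 of 10 over 6 hpf (right), in 4 classes of the RPKM at 6 hpf, for members (red), znf genes below 900 (blue) and all genes (grey). The red bars reach 46.2%, 87.8%, 98.1% and 100%, above grey in each class, and the blue class at 50 RPKM or more holds 5 genes.

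Zinc finger genes with lower numbers, most of them conserved among vertebrates, were set beside the members. Among 100 znf genes numbered below 900, 20 were called lower, 14 higher and 66 were not called in the authors' deposited table. Their median was 4.53 RPKM at the earlier stage and 6.75 RPKM at the later one, so that both sets stood close together at 10 hpf (7.13 RPKM for the members) and far apart at 6 hpf. A level of 1 RPKM or more at 6 hpf was found in 70 of the 100 (70%), in 236 of 237 members (99.6%) and in 42.2% of all genes. Their median percentile among all genes by RPKM was 74.5 at 6 hpf and 77.8 at 10 hpf.

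The median fold of the lower-numbered genes lay near that of all genes at 1 RPKM or more, and their quartiles lay closer together. The 82 of them at 1 RPKM or more at either stage had, by the authors' deposited table, a median fold of −0.43 with quartiles of −0.87 and 0.43, against −0.41, −1.45 and 0.62 over all genes at 1 RPKM or more. The most abundant was znf185 (ENSDARG00000103917), whose human counterpart encodes a LIM-domain protein and not a C2H2 one, and which fell from 162.6 to 80.1 RPKM. The largest fall was that of znf366 (ENSDARG00000040116), from 1.83 to 0.245 RPKM, and the largest rise that of znf423 (ENSDARG00000095732), a multi-finger factor of neural development, from 0.221 to 6.06 RPKM. At 5 RPKM or more at 6 hpf, 16 of 47 lower-numbered genes (34.0%) were called lower, below the 45.2% of all genes in that class. Divided by level at 6 hpf, 5 of 26 (19.2%) were called lower from 5 to under 20 RPKM. From 20 to under 50 RPKM it was 7 of 16 (43.8%), and at 50 RPKM or more 4 of 5 (80%). All genes had 38.5%, 52.4% and 55.9% in the same order of classes. The difference between the numbered sets was not tested, since no spread between samples was available.

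Levels changed along the series of symbol numbers. The number is a name and not a position, and the ranges given here were set after the values had been seen. The 109 members from znf1030 to znf1129 had medians of 34.5 RPKM at 6 hpf and 7.76 RPKM at 10 hpf, and 108 of them were called lower, znf1035 being the exception. The 70 members from znf970 to znf1029 had medians of 24.3 and 6.81 RPKM, with 61 called lower. The 58 from znf1130 to znf1184 had medians of 11.1 and 5.67 RPKM, with 49 called lower and 8 of the 18 uncalled members. Thus the 3 ranges differed more in median at 6 hpf than at 10 hpf, and their median RPKM ratios of 6 to 10 hpf were 4.34, 3.12 and 2.51 in the order given.

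Within the middle range some stretches, picked after their values were seen, held high levels. All rows from znf1060 to znf1066 lay between 60.8 and 107.5 RPKM at 6 hpf. The genes from znf1042 to znf1050 were also mostly high. Of their 12 rows, 9 were at 50 RPKM or more at 6 hpf and 5 at 100 RPKM or more, and znf1042, znf1043, znf1044 and znf1045 were all among the 8 highest members. Among the other numbers znf1046 stood at 93.0 RPKM, znf1049 at 83.3 RPKM and znf1048 at 58.7 RPKM at 6 hpf. The lower rows of znf1045, znf1047 and znf1050, at 29.0, 34.5 and 31.0 RPKM, lay near the median of all members. At 10 hpf these 12 rows lay between 2.31 and 27.1 RPKM. At the other end, the 22 members from znf1150 to znf1169 had a median of 8.96 RPKM at 6 hpf although znf1150 itself stood at 103.4 RPKM, and the 14 from znf1170 to znf1184 had a median of 8.22 RPKM and reached no more than 23.3 RPKM.

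**Figure D4:**
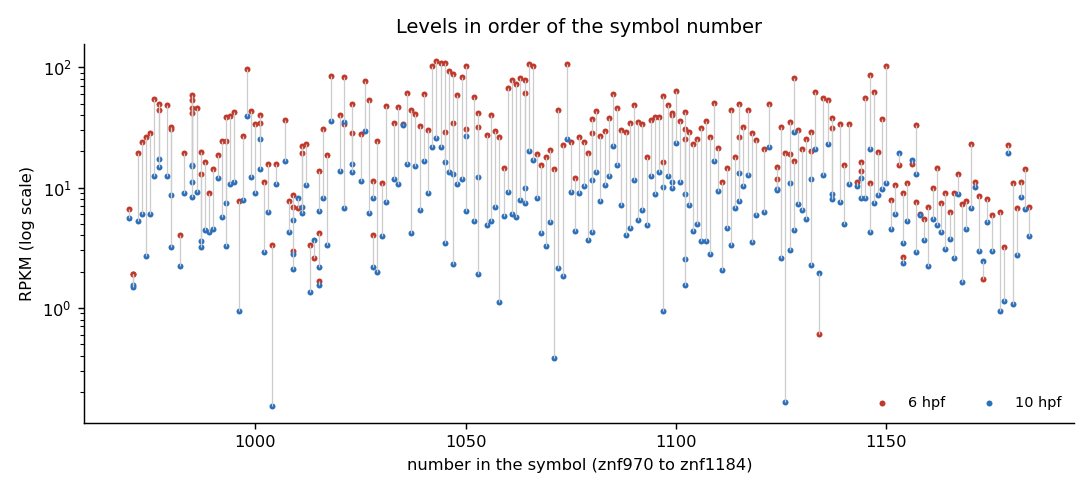
RPKM (vertical, log scale) of each of the 237 members at 6 hpf (red) and 10 hpf (blue), joined by a line, in order of the number in the symbol (horizontal). Red points lie above blue ones in 231 members. At the right end, the 14 members from znf1170 to znf1184 have a median of 8.22 RPKM and a highest value of 23.3 RPKM at 6 hpf. The lowest red point is znf1134, at 0.604 RPKM.

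Several genes can carry the same symbol. This was so for 32 symbols on 69 rows, 28 of them on 2 rows, 3 on 3 rows and znf985 on 4 rows. The higher row was a median of 1.63 times the lower one at 6 hpf, from 1.01 times for znf971 to 8.26 times for znf1015, and 12 symbols differed by more than 2 times. At 6 hpf the rows of znf985 stood at 41.9, 45.9, 54.0 and 59.3 RPKM. The matching values at 10 hpf were 8.28, 11.2, 15.2 and 15.5 RPKM, in the same order, and all 4 were called lower. By contrast, znf1146 had 1 row that fell from 86.8 to 21.1 RPKM and 1 that fell from 11.02 to 4.26 RPKM.

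Genes under the same symbol could also fall by unlike amounts. In the authors' deposited table, their folds differed by a median of 0.61 and by at most 2.31, which was the case in znf1053. There 1 row fell from 31.7 to 1.90 RPKM and the other (ENSDARG00000098270) from 41.8 to 12.3 RPKM. At the other extreme, the rows of znf1157 had folds within 0.01 of each other although their levels at 6 hpf, 33.1 and 7.63 RPKM, differed 4.34 times. Every row was called lower for 27 of the 32 symbols, and for 4 symbols (znf1009, znf1015, znf1028 and znf1154) some rows were called and others not. The remaining symbol, znf971, had both rows uncalled, at 1.91 and 1.92 RPKM at 6 hpf and 1.56 and 1.48 RPKM at 10 hpf.

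**Figure D5:**
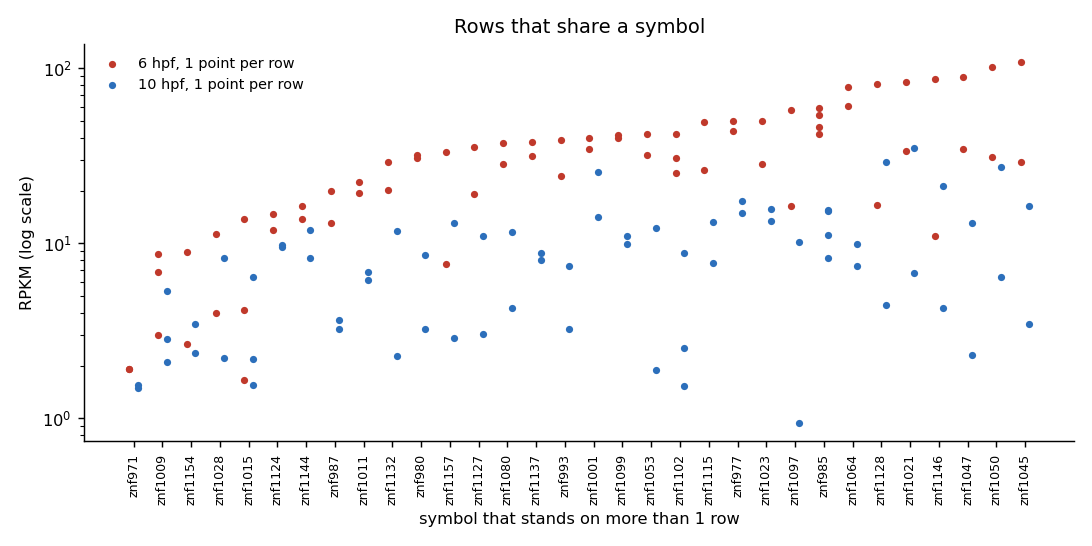
RPKM (vertical, log scale) at 6 hpf (red) and 10 hpf (blue) of the 69 rows whose symbol stands on more than 1 row, 1 point per row, with the 32 symbols in order of their highest 6 hpf value (horizontal). The points of a symbol spread by a median of 1.63 times at 6 hpf and by up to 8.26 times, in znf1015.

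A further 19 genes were deposited under clone or locus placeholder names, and a current table of gene names gives them high-numbered znf symbols. The symbol rule did not reach them. Of these, 17 were called lower, 0 higher and 2 were not called in the authors' deposited table. The share called lower was 19.8% over all genes and 45.2% over those at 5 RPKM or more at 6 hpf. The medians of the 19 genes were 26.5 RPKM at 6 hpf and 6.02 RPKM at 10 hpf, close to those of the members. The highest was the gene now named znf1040 (ENSDARG00000098986), at 143.1 and 38.5 RPKM, above every member at 6 hpf. The current table also shows that the names have moved: of 167 members it holds, 128 carry the same symbol today, and 39 carry another one. The symbols and number ranges given here are the deposited ones. For example, the gene deposited as znf1018 is now named znf1039, and znf1046 is now named znf1048. The current znf1044 is another gene (ENSDARG00000092080), at 130.4 and 16.4 RPKM.

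Genes of the chromatin machinery that zinc finger repressors are known to work with in mammals were listed apart from these genes. Of 40 symbols 38 were found, on 39 rows. The list held trim28, but none of these rows was deposited under that symbol. By the authors' deposited table, 14 rows were called lower, 1 was called higher and 24 were not called, and the median fold was −0.65. The share called lower, 35.9%, was over all 39 rows, without a limit of level. It stood beside 32.9% of all genes at 1 RPKM or more and 45.2% of those at 5 RPKM or more at 6 hpf. Some listed genes lay under these limits, such as dnmt3ab at 0.224 and 0.241 RPKM, so neither of these shares has a like limit. Without a limit of level, 19.8% of all genes were called lower. All genes include 11589 listed at 0 at 6 hpf. The median level of all 39 rows at 6 hpf was 34.5 RPKM. All genes in the class from 20 to under 50 RPKM had a median fold of −0.998 by the authors' deposited table. Many listed rows lay outside that class, so the median folds are not of like sets. The most abundant at 6 hpf was cbx3a, which encodes a heterochromatin protein of the HP1 family and fell from 293.5 to 153.9 RPKM. The largest fall was that of morc3b, a MORC-family ATPase gene, from 7.21 to 0.671 RPKM, and the only called rise that of trim24, a relative of the mammalian co-repressor TRIM28, from 1.60 to 7.66 RPKM. The genes for SETDB1, which methylates histone H3 at heterochromatin, were not called, with setdb1b at 34.5 and 31.2 RPKM and setdb1a at 9.002 and 21.6 RPKM.

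Factors known for the activation of the zebrafish genome were listed in the same way. Of 14 such genes 7 were called lower, 0 higher and 7 were not called, and the authors' deposited table gave a median fold of −1.01. The share called lower was 50%, beside 19.8% of all genes and 45.2% of those at 5 RPKM or more at 6 hpf. The list had no limit of level, and eomesa (0.650 RPKM) and kdm4aa (1.43 RPKM) lay under 5 RPKM at 6 hpf. The highest at 6 hpf and the largest fall were both those of pou5f3, a POU-domain factor, from 783.5 to 45.7 RPKM. The others ranged widely: foxh1, which acts in Nodal signalling, fell from 59.03 to 12.8 RPKM, and sox19b, a SoxB1 gene, was not called at 16.5 and 35.5 RPKM.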

How the data were processed

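Total RNA was taken with Trizol from embryos freed of their chorions, and libraries followed standard Illumina methods, per the labels' protocols. TopHat2 2.1.1 and genome build GRCz10 are named in the submitters' processing notes. The sources used here name no read counter, annotation or strand setting. The labels do not say whether both 10 hpf libraries came from separate clutches.

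The deposited table gives RPKM per stage, 1 value for 6 hpf and 1 over both 10 hpf libraries, per the file headers. The authors also deposited a log2 fold of 10 over 6 hpf and its conservative form (log2, GFOLD at 0.01), per the file headers. An empirical false discovery rate (FDR) was computed and deposited by the authors, named as an FDR and not a p-value, per the file headers. The sources used here do not describe the scaling of the folds.

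From these values counts, medians, ratios and percentiles were computed (Python 3.11.15, pandas 2.3.3, SciPy 1.17.1), and the counting steps were tested on simulated data. No interval over genes is given, since genes are not replicates. Depth was inferred from 5S rRNA genes, whose low RPKM values were whole reads within 0.01 bases of gene length. Members were matched by symbol and the lists by symbol or current symbol. The members and lists were chosen with earlier results of these data known. Named members were the 8 highest at 6 hpf, the 8 with the lowest fold among called members at 5 RPKM or more, up to 6 called higher, the 3 highest at 10 hpf and the 3 highest not called. For each comparison set the most abundant gene and the largest called change in each direction were named. Other named genes were picked after their values were seen. Only 74 of 237 members (31.2%) were matched in a RefSeq gene table of assembly GRCz12tu, under the 80% needed, so a check of position is void, and positions and sequences were not used here. Alternatives covered thresholds, minimum levels, pseudocounts of 0.1, 1 and 5, centring and the matching of members.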

Additional observations from a re-analysis of the deposited data

How the results depend on the processing

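The count of members called lower was 218. It was 213 at a false discovery rate under 0.01, 214 with an absolute log2 fold of at least 1, 212 at 5 RPKM or more, 200 with centred folds, 155 of the 168 whose symbol stands on 1 row, 185 of 200 with each symbol counted once (chosen after seeing the data) and 142 of the 158 genes that carry such a symbol today. The 1 higher call became 0 at a false discovery rate under 0.01 and 0 at 5 RPKM or more. Centring took the lower calls among znf genes below 900 from 20 to 10. The members' median log2 fold of −2.40 was −1.90 when centred, and on the log2 RPKM ratio it was −1.82, −1.68 and −1.32 with pseudocounts of 0.1, 1 and 5. At 1 to under 5 RPKM at 6 hpf the median of −1.03 became −0.53 when centred and −0.49, −0.36 and −0.17 with those pseudocounts. At 5 RPKM or more the median of −2.44 became −1.94 when centred and −1.86, −1.72 and −1.35, and dividing that class, a step chosen after seeing the data, gave −1.87, −2.54 and −2.85. The share of members at 1 RPKM or more at 6 hpf, 99.6%, was 100% at 0.5 RPKM and 94.1% at 5 RPKM. None of these settings turned a median positive. The causes of these shifts were not tested, apart from the smaller sets that some settings count. No paired analysis was possible because both 10 hpf libraries stand in 1 value, and for the same reason no library could be left out. With 1 value per stage, depth limits single genes of few reads, such as znf1126 at 10 hpf.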

Other observations

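A pair of human-style names was given to several zebrafish genes each, and these genes lay outside the symbol rule. Of 7 genes deposited as ZNF70 (1 of many), 4 were called lower, 0 higher and 3 were not called in the authors' deposited table, and 1 was listed at 0 at both stages. Among them ENSDARG00000102771 fell from 38.0 to 4.49 RPKM and ENSDARG00000093236 from 27.3 to 4.58 RPKM. Of 7 genes deposited as ZNF189 (1 of many), 5 were called lower, 0 higher and 2 were not called, and 1 was listed at 0 at both stages. The most abundant, ENSDARG00000104041, fell from 48.2 to 6.58 RPKM. Over all genes 19.8% were called lower, and over those at 5 RPKM or more at 6 hpf 45.2%. With 7 genes under each name, the counts are a description. Whether the genes under these human-style names are close copies of the high-numbered ones was not tested.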
